A study of Mus musculus with 12 samples.

Results

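The genes that sterol regulatory element binding proteins (SREBPs) switch on for the synthesis of cholesterol and fatty acids were described in the livers of female mice given testosterone or vehicle. The members were 29 genes listed by symbol for their place in these pathways. A probe set named for the gene was found for 27 of the 29, out of 12393 genes with a named probe set in all; Insig1 and Acat2 had none in the annotation used and were not analysed here. The 27 fall into a sterol branch of 17 genes, 3 regulators and a lipogenic branch of 7 genes, and all 27 passed the filter on dim genes.

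The study used 12 female C57BL/6 mice in 4 groups of 3 individual animals. Vehicle mice received 100 µl of sesame oil under the skin 2 times a week for 3 weeks, and testosterone mice received 0.9 mg testosterone in the same volume of oil on the same schedule. One set of each was studied directly at the end of treatment and another after withdrawal. The sample titles put that withdrawal at 12 weeks, whereas the design text of the series gives 3 weeks, so the later time is called "after withdrawal" here. The source label of the withdrawn testosterone mice speaks of withdrawal of vehicle; the groups follow the titles. Neither age nor feeding state nor hour of collection is given in the sources used here. Age and time since the last injection cannot be told apart between the early and the late mice.

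As background, the SREBPs are transcription factors held as precursors in the endoplasmic reticulum by the escort protein SCAP and the anchor proteins INSIG1 and INSIG2. When membranes lack cholesterol, the precursor moves to the Golgi, is cut, and its released part enters the nucleus and binds sterol regulatory elements near its target genes. SREBP-2, the product of Srebf2, acts mainly on cholesterol synthesis, and SREBP-1c, a product of Srebf1, is the liver form that insulin induces and that acts mainly on fatty acid synthesis. The liver runs both pathways, in part for export in lipoproteins.

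Each liver was measured on 1 Affymetrix array, and all values are the deposited array signals on a linear scale, in arbitrary units. Array medians ran from 20.1 to 22.6, the 2% trimmed mean was set to the same 100.05 on every array by the authors' scaling, and the correlation between arrays within a group was 0.979 to 0.989 over probe sets. The summed signal of 11 measured hepatocyte markers lay between 41719 and 52906 in all 12 livers, with none at or under the floor in a whole group, so the tissue label held. Fat cells also use lipid synthesis genes; the sum of 5 measured fat cell markers stayed between 54.0 and 128, with 2, 2, 1 and 1 markers at or under the floor in all mice of the vehicle end, testosterone end, vehicle withdrawal and testosterone withdrawal groups. The sum of 7 measured exocrine pancreas markers ran from 26.2 to 86.1 in the other groups and from 50 to 955 in withdrawn testosterone mice. Each of these markers was higher in withdrawn testosterone mice 1 and 2 than in mouse 3, as with Cpa1 at 40.3, 138 and 0.472. The part of this signal in the values of those mice was not tested. A gene was called where its limma p, adjusted by Benjamini-Hochberg over 7217 genes, was under 0.05. These are whole livers, in which fewer cells of a type and less RNA per cell cannot be told apart, and levels are compared between mice for 1 probe set at a time, never between genes.

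Upstream sequence was available for 25 of the 29 listed genes in the RefSeq promoter table (GRCm38.p6, 250 bases before to 50 bases after the start of each gene). Fdps, Fdft1, Sqle and Stard4 had no window and were not searched. The motifs searched on both strands were the core of the sterol regulatory element, TCACNCCAC; the E-box CACGTG, which reads the same on both strands and which SREBP-1 can also bind; and the NF-Y box CCAAT, read as ATTGG on the other strand, where the NF-Y partner of SREBP binds. The 25 genes have 34 windows, some genes having several. The CCAAT letters were found in 24 of the 34 windows (23 of the genes), against 37.4% of 32851 windows of the same length in the whole table. The sterol core was found in 1 of the 34 windows, that of Hmgcs1, against 1.24% of all windows, and the E-box in 4 of the 34, of Hsd17b7, Insig1, Dhcr7 and Sc5d, against 7.15%. A match describes letters only, and no match says nothing of binding. The 250 upstream bases are shown for members with patterns described below. Hmgcs1 was the only one of the 25 searched genes with the sterol core (chr13:119690101-119690350, plus strand). Hsd17b7 was lower at the end of testosterone and in the later vehicle mice (chr1:169969206-169969455, minus strand). Acss2 is a lipogenic member lower under testosterone (chr2:155517793-155518042, plus strand). Insig2 and Thrsp moved in opposite directions between the times (chr1:121332590-121332839 and chr7:97417551-97417800, both minus strand). The Insig2 window is the only 1 of 3 listed that holds any of the motifs. Each sequence runs 5′ to 3′ along the gene. Capitals mark the motifs, all of them CCAAT or ATTGG apart from TCACCCCAC in Hmgcs1 and CACGTG in Hsd17b7.
Hmgcs1: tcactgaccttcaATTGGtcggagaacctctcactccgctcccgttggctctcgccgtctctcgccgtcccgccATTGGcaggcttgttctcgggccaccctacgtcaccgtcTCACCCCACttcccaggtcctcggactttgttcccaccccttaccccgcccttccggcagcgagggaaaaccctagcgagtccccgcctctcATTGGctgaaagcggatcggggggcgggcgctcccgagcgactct
Hsd17b7: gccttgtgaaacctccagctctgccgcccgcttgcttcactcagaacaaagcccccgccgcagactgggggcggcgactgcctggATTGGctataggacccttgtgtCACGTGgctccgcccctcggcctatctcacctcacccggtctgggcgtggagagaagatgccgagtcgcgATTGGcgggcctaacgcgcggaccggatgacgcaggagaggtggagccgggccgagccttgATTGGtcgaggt
Acss2: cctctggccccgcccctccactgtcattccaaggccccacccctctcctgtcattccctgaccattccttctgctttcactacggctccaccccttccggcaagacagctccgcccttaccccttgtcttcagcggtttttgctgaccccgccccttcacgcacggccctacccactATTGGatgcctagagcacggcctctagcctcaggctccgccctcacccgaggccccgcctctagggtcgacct
Insig2: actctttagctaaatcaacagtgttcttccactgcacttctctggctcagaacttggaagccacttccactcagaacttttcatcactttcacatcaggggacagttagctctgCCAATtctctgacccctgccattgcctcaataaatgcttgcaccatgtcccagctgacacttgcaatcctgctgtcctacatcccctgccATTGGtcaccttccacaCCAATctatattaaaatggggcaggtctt
Thrsp: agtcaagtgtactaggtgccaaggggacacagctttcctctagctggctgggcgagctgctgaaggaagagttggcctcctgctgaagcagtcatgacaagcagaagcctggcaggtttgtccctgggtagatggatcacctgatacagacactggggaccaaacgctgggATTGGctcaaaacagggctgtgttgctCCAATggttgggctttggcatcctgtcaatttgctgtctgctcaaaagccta
The sterol core of Hmgcs1 lies at bases -137 to -129 from the gene start, and the E-box of Hsd17b7 at -143 to -138.

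**Figure D1:**
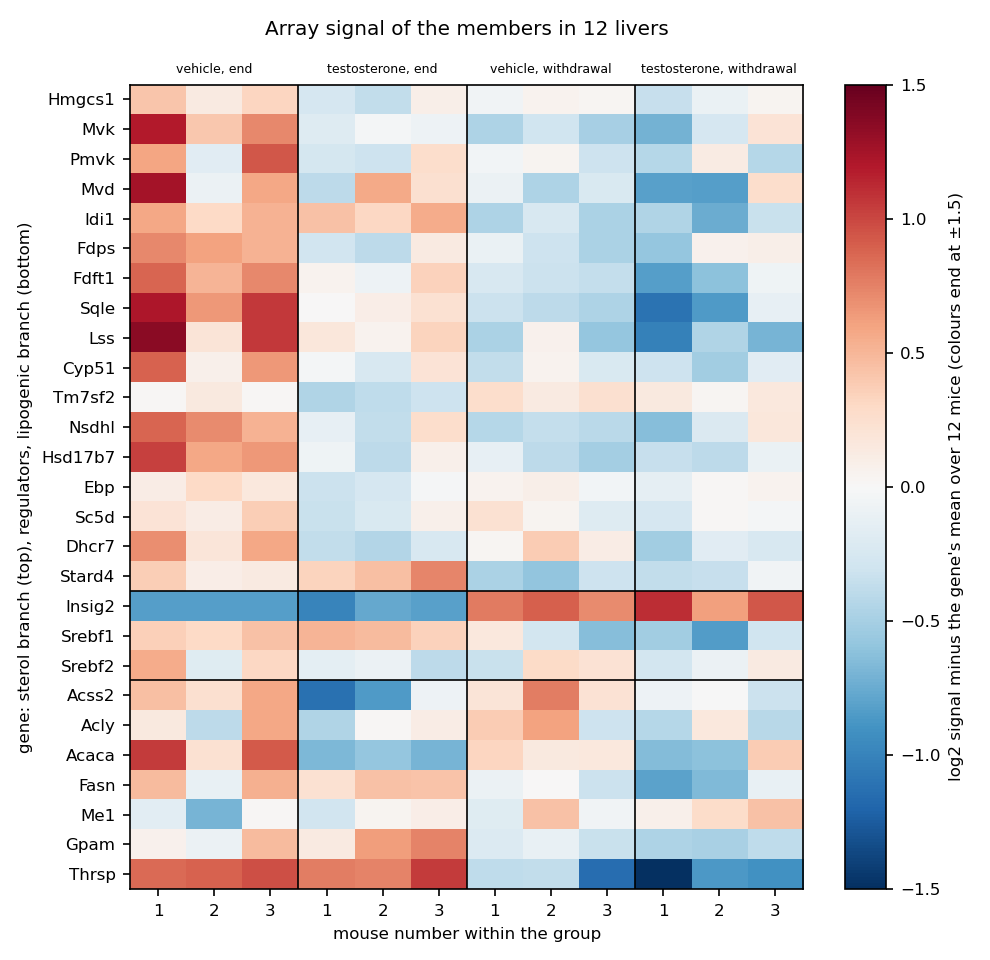
Heat map of the 27 measured members (rows: sterol branch above, regulators between the lines, lipogenic branch below) in 12 livers (columns, 3 mice a group). Colour gives log2 signal minus the mean of that gene over the 12 mice; most sterol rows are red in the 3 vehicle mice at the end, Insig2 turns red and Thrsp blue in the 6 later mice.

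At the end of treatment the question was how testosterone-treated female livers differed from vehicle livers. The sterol branch was lower: 12 of its 17 genes were called lower and none higher, with a median log2 difference of -0.56, against 8.01% of all genes called lower, 9.42% called higher and a median of 0.04 over all genes tested. Of the 17, 16 had a value below 0. In the lipogenic branch 2 of 7 genes were called lower and none higher, with a median of -0.04, and none of the 3 regulators was called. The genes called lower act before and after lanosterol; Pmvk, Mvd, Idi1, Lss and Stard4 were not called.

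Among the early, mevalonate steps, Hmgcs1 makes HMG-CoA and Mvk phosphorylates mevalonate. The Hmgcs1 signal was 3330, 2736 and 3122 in vehicle mice and 2095, 1932 and 2653 in testosterone mice. All 3 testosterone mice lay below all 3 vehicle mice, although testosterone mouse 3 came close to vehicle mouse 2; the log2 difference was -0.47 ± 0.12 (SE; limma, adjusted p = 0.0133), or 1.38-fold lower. Mvk read 186, 108 and 135 in vehicle mice against 71.6, 80.4 and 77.8 in testosterone mice. Again the groups did not overlap, at a log2 difference of -0.87 ± 0.21 (adjusted p = 0.0115), and the spread was wider in the vehicle mice (SD 39.5 against 4.51). Pmvk and Mvd, the kinase and the decarboxylase that follow, had log2 differences of -0.56 and -0.44 that did not pass the test (adjusted p = 0.121 and 0.384). The brightest probe set of Idi1, which isomerises isopentenyl diphosphate, read 1405, 1154 and 1354 in vehicle mice and 1272, 1166 and 1381 in testosterone mice. On this probe set the groups lay on top of each other, at a log2 difference of -0.03 ± 0.12 (adjusted p = 0.871). A second, dimmer Idi1 probe set gave -0.36 and was not called either (adjusted p = 0.220 in a fit of every probe set).

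Fdps builds farnesyl diphosphate, the last intermediate shared with the non-sterol products. Its signal was 2520, 2325 and 2189 in vehicle mice and 1254, 1166 and 1668 in testosterone mice. The gap between the groups was wide, with group means of 2345 ± 167 and 1363 ± 268 (SD, n = 3 each), a log2 difference of -0.80 ± 0.16 and an adjusted p of 0.00459, or 1.74-fold lower. Fdft1, squalene synthase, makes the first committed sterol precursor and read 1576, 1231 and 1417 against 894, 818 and 1100. Its groups did not overlap, and it was 1.51-fold lower (log2 -0.59 ± 0.16, adjusted p = 0.0209). Sqle, squalene epoxidase, is a rate-limiting step after squalene. Its signal was 999, 681 and 899 in vehicle mice and 432, 463 and 508 in testosterone mice, so each testosterone mouse was below each vehicle mouse, and the log2 difference was -0.86 ± 0.19 (adjusted p = 0.00797). Lss, which closes the ring to lanosterol, read 513, 230 and 421 against 227, 208 and 253; vehicle mouse 2 lay within the testosterone range, and the log2 difference of -0.69 did not pass (adjusted p = 0.0647).

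The post-lanosterol enzymes were lower with smaller and larger steps. Cyp51, which removes the first methyl group from lanosterol, differed by -0.56 ± 0.18 on the log2 scale (adjusted p = 0.0444), with vehicle mouse 2 at 461 inside the testosterone range of 368 to 503. Tm7sf2, a sterol C14 reductase, read 735, 807 and 736 in vehicle mice and 532, 560 and 587 in testosterone mice. Both Tm7sf2 groups were tight and well apart, at a log2 difference of -0.44 ± 0.08 (adjusted p = 0.00206). Nsdhl and Hsd17b7 act in turn in the removal of the C4 methyl groups. The Nsdhl signal was 1097, 977 and 861 against 551, 463 and 723, and Hsd17b7 was 284, 209 and 219 against 133, 106 and 148. Neither gene had overlapping groups, and both were lower, by 1.71-fold for Nsdhl (log2 -0.77 ± 0.18, adjusted p = 0.00887) and 1.84-fold for Hsd17b7 (log2 -0.88 ± 0.15, adjusted p = 0.00148).

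The last steps on the route to cholesterol were lower too. Ebp, the sterol isomerase, and Sc5d, the sterol C5 desaturase, each differed by -0.39 on the log2 scale (SE 0.09 and 0.12; adjusted p = 0.00925 and 0.0376), with no overlap of the groups; a second, dimmer Sc5d probe set gave -1.17 (adjusted p = 0.0237 in a fit of every probe set). Dhcr7, which makes cholesterol from 7-dehydrocholesterol, read 566, 394 and 521 in vehicle mice and 271, 258 and 294 in testosterone mice. It had the smallest adjusted p of the branch, 0.00109, at a log2 difference of -0.83 ± 0.14. Stard4, a carrier that moves cholesterol between membranes, was the 1 sterol member with a value above 0 (log2 0.31 ± 0.13), which did not pass (adjusted p = 0.104).

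In the lipogenic branch, Acss2, which makes cytosolic acetyl-CoA from acetate, read 1580, 1364 and 1734 in vehicle mice and 532, 645 and 1102 in testosterone mice. The groups did not overlap, testosterone mouse 3 was the highest of its group, and Acss2 was 2.15-fold lower (log2 -1.10 ± 0.21, adjusted p = 0.00304). Acaca, acetyl-CoA carboxylase 1, makes malonyl-CoA and read 37.6, 21.2 and 34.5 against 11.4, 12.2 and 11.2. It was 2.60-fold lower (log2 -1.38 ± 0.29, adjusted p = 0.00570), but the probe set is dim. The testosterone signals lie under the array medians of 20.1 to 22.6, and the vehicle signals about or above them. Acaca thus passed the filter on dim genes through mice of the other groups. The other 5 were Acly (ATP citrate lyase), Fasn (fatty acid synthase), Me1 (malic enzyme, a source of NADPH), Gpam and Thrsp. Gpam acts in the first step of glycerolipid synthesis, and Thrsp is a regulator of lipogenesis. On the brightest probe set their log2 differences lay between -0.22 and 0.35, none of which passed. In a fit of every probe set, a second one of Acly and of Gpam was lower (log2 -0.81 and -0.90, adjusted p = 0.0331 and 0.0169). Those of Me1 and Thrsp, and a further one of Acly, were not called. Thrsp read 3174, 3254 and 3445 in vehicle mice and 3006, 2963 and 3660 in testosterone mice, with overlapping groups. Fasn read 1147, 768 and 1198 against 966, 1118 and 1113, and its testosterone mice lay within the vehicle range.

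The regulators did not pass at this time. Srebf1 read 759, 725 and 803 in vehicle mice and 843, 819 and 749 in testosterone mice (log2 0.08 ± 0.17, adjusted p = 0.791). Insig2 was nearly flat, with 281, 280 and 280 in vehicle mice against 252, 293 and 283. Srebf2 was scattered, at 108, 64.8 and 91.3 against 66.8, 69.1 and 56.1. Its log2 difference was -0.44 with an adjusted p of 0.144 (limma), and without vehicle mouse 2 it was called. Array signals read transcripts, whereas SREBP activity is set largely by cleavage of the protein, which was not measured.

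Beside these values, the sum of 12 Kupffer cell and macrophage markers was 2864 to 3534 in testosterone mice and 4013 to 6313 in vehicle mice at the end, and 7 of the 12 markers were called lower; their part in the sterol values was not tested. The 3′ to 5′ signal ratio of the beta-actin control probe sets, a sign of RNA length, was 2.03 to 2.19 in testosterone mice and 1.44 to 1.64 in vehicle mice (exact permutation test, two-sided, p = 0.1, the smallest that 3 against 3 can give). The same ratio of the Gapdh control probe sets was 0.908 to 0.958 in testosterone and 0.735 to 0.798 in vehicle mice (exact permutation p = 0.1). With the actin ratio as a covariate 0 of the 17 sterol genes, 0 of the 7 lipogenic genes and 78 of all genes were called. The sterol median was then -0.05. Since the ratios of the groups do not overlap, ratio and treatment cannot be told apart. Without vehicle mouse 1, 7 of the sterol genes were called, the calls of Hmgcs1, Mvk, Fdft1, Cyp51 and Sc5d being lost. With no filter on dim genes the count was 5.

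**Figure D2:**
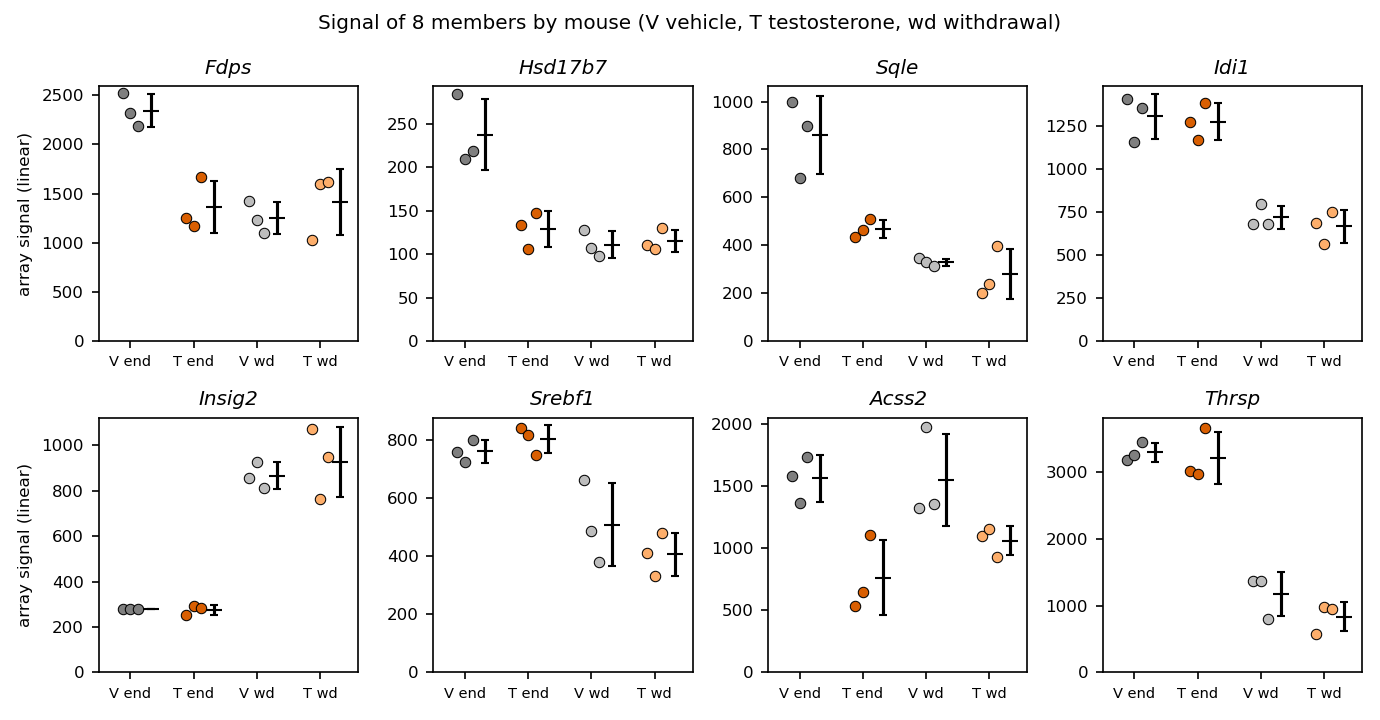
Array signal (linear, from 0) of 8 members in each of 12 mice; points are mice, and bars are group means ± SD (n = 3). Fdps, Hsd17b7 and Sqle are highest in vehicle mice at the end (V end); Idi1, Srebf1 and Thrsp are lower in both withdrawal (wd) groups, Insig2 is higher there, and Acss2 has its lowest mean in testosterone mice at the end (T end).

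After withdrawal the question was whether livers that had seen testosterone still differed from vehicle livers of the same time. None of the 27 members was called in either direction, against 2.74% of all genes called higher and 3.26% called lower. At an unadjusted limma p under 0.05 there were 4 of the 27 members, beside 1485 of all 7217 genes tested. The median difference was -0.12 in the sterol branch and -0.45 in the lipogenic branch, against -0.04 over all genes tested. Dhcr7 read 354, 452 and 377 in vehicle mice and 242, 310 and 295 in testosterone mice. These groups did not overlap, but the log2 difference of -0.48 ± 0.14 missed the threshold (adjusted p = 0.0570). Acss2 read 1320, 1973 and 1351 against 1099, 1151 and 930, also without overlap (log2 -0.53 ± 0.21, adjusted p = 0.167). In the lipogenic branch 6 of 7 values lay below 0, from -0.53 to -0.23, with Me1 at 0.19; the adjusted p of Thrsp was 0.168 (log2 -0.49 ± 0.20) and of Fasn 0.220 (log2 -0.40 ± 0.18). Leaving out single mice gave at most 1 call in each branch: Dhcr7 without vehicle end mouse 1 or 2, Sqle without withdrawn testosterone mouse 3, and Thrsp without withdrawn vehicle mouse 3.

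The test of whether the testosterone difference itself changed between the times called 2 members, Fdps and Hsd17b7, against 0.790% of all genes called higher and 1.40% called lower. For Fdps the later difference minus the earlier one was 0.95 ± 0.23 on the log2 scale (limma, adjusted p = 0.0473): the later groups read 1422, 1231 and 1098 in vehicle mice and 1022, 1596 and 1616 in testosterone mice. These later groups overlap, unlike the early ones. For Hsd17b7 the value was 0.94 ± 0.22 (adjusted p = 0.0415), with 128, 107 and 98.1 in vehicle and 110, 106 and 130 in testosterone mice, again overlapping. Between the times, Fdps and Hsd17b7 fell in vehicle mice (log2 -0.91 and -1.09), beside 0.04 and -0.15 in testosterone mice. For the change of the testosterone difference, Mvk and Nsdhl had values of 1.04 and 0.94 that missed the threshold (adjusted p = 0.0730 and 0.0600). The sterol median was 0.35, with 15 of 17 values above 0, against -0.07 over all genes tested, and 15 sterol genes, all 3 regulators and all 7 lipogenic genes were not called. Both calls were lost without a filter, with the mean of all probe sets, without a variance trend, with the actin ratio as covariate, and without vehicle end mouse 1, testosterone end mouse 1 or 2, or withdrawn vehicle or testosterone mouse 2 or 3. The Fdps call alone was lost without vehicle end mouse 2, where 1 remained, while 3 sterol genes were called without vehicle end mouse 3 or testosterone end mouse 3, and 4 without withdrawn testosterone mouse 1. In the lipogenic branch Gpam was called without vehicle end mouse 3. In the same test all 12 Kupffer cell and macrophage markers had values above 0 (median log2 0.72), and none was called. Their part in the sterol values was not tested.

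**Figure D3:**
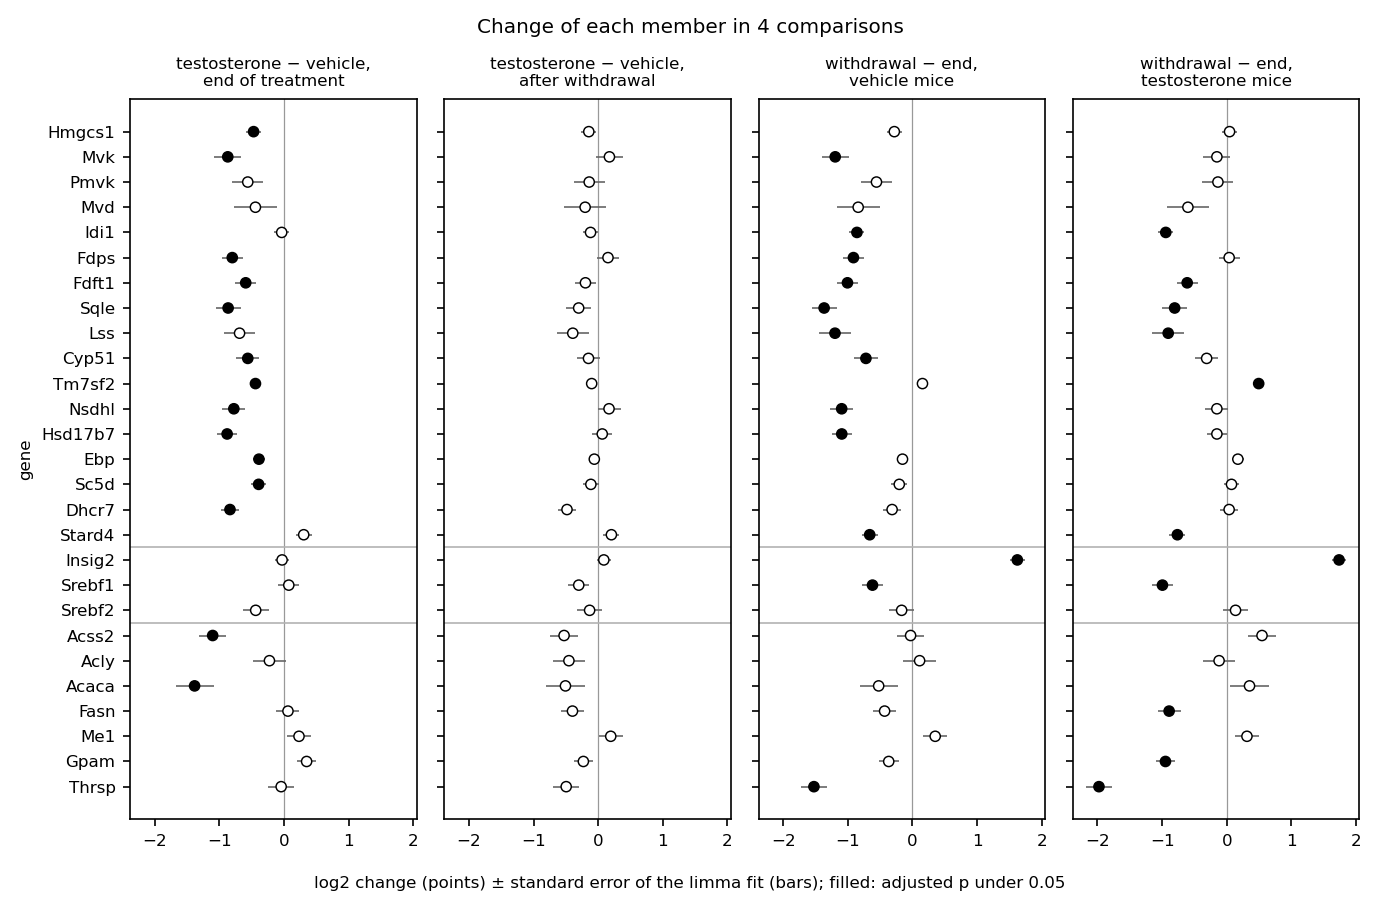
log2 difference of each member (points) ± SE of the limma fit (bars) in 4 comparisons; filled points have an adjusted p under 0.05. In the first panel 12 sterol genes are filled below 0, in the second none is filled, and in both comparisons over time Insig2 is filled (1.62 in vehicle and 1.74 in testosterone mice), as is Thrsp (-1.52 and -1.98).

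Vehicle livers also differed between the times, a comparison without testosterone. In vehicle mice after withdrawal, 10 of the 17 sterol genes were called lower than in vehicle mice at the end and none higher, against 6.83% of all genes called lower and 11.0% called higher; the sterol median was -0.84 and that of all genes tested 0.06. Of the regulators Insig2 was called higher and Srebf1 lower, and of the lipogenic branch Thrsp was called lower. This comparison and the one at the end of treatment share the same 3 vehicle end mice, so their values are set side by side and are not independent. The sterol genes called were Mvk, Idi1, Fdps, Fdft1, Sqle, Lss, Cyp51, Nsdhl, Hsd17b7 and Stard4.

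Sqle read 999, 681 and 899 in the early vehicle mice and 344, 329 and 315 in the late ones. It had the widest sterol difference, 2.58-fold lower (log2 -1.37 ± 0.19, adjusted p = 0.000432), and the late mice were close together (SD 14.8). Fdft1 fell from 1576, 1231 and 1417 to 728, 692 and 674, or 2.01-fold (log2 -1.01 ± 0.16, adjusted p = 0.000981). Nsdhl read 446, 467 and 454 in the late mice, 2.14-fold lower than in the early ones (adjusted p = 0.00106), and Hsd17b7, at 128, 107 and 98.1, was 2.13-fold lower (adjusted p = 0.000419). For each of these 4 genes every late vehicle mouse lay below every early one. Mvk and Lss were both 2.29-fold lower (adjusted p = 0.00184 and 0.00460), Fdps 1.88-fold (0.00217) and Cyp51 1.65-fold (0.0141).

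Idi1 and Stard4, whose testosterone differences at the end were -0.03 and 0.31 and were not called, were lower here. Idi1 read 681, 797 and 679 in late vehicle mice, well under the early 1405, 1154 and 1354, at a log2 difference of -0.86 ± 0.12 (adjusted p = 0.000276). Stard4 read 283, 262 and 316 against 507, 423 and 432 (log2 -0.66 ± 0.13, adjusted p = 0.00299), again without overlap. The sterol genes not called here were Hmgcs1 (log2 -0.28, adjusted p = 0.111), Dhcr7 (log2 -0.31, adjusted p = 0.135), Ebp and Sc5d (log2 -0.15 and -0.20), Tm7sf2 (log2 0.16), and Pmvk and Mvd (log2 -0.56 and -0.84, adjusted p = 0.121 and 0.0930).

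Insig2, which holds the SREBP precursor in the endoplasmic reticulum, had the largest rise of the members. Its signal was 281, 280 and 280 in early vehicle mice and 856, 929 and 812 in late ones. The groups were far apart, with means of 281 ± 0.391 and 866 ± 59.2 (SD, n = 3 each), a 3.08-fold rise (log2 1.62 ± 0.11, adjusted p = 4.29e-07). Its other probe sets gave log2 values of 1.90 and 1.59 in a fit of every probe set. Srebf1 read 759, 725 and 803 in early and 662, 487 and 379 in late vehicle mice. All late mice were lower but widely spread, and the 1.53-fold difference (log2 -0.62 ± 0.17, adjusted p = 0.0191) was not called without a filter, with the actin ratio as covariate, or without vehicle end mouse 3 or withdrawn vehicle mouse 2 or 3. Srebf2 was not called (log2 -0.17).

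Thrsp, known for following carbohydrate feeding, thyroid hormone and insulin, read 3174, 3254 and 3445 in early vehicle mice and 1362, 1374 and 800 in late ones. Every late mouse was less than any early mouse, and the fall was 2.88-fold (log2 -1.52 ± 0.20, adjusted p = 0.000236). The other 6 lipogenic genes were not called: Acss2 and Acly had values of -0.03 and 0.11, Fasn, Gpam and Acaca values of -0.43, -0.37 and -0.52, and Me1 a value of 0.35; Fasn was called as well without vehicle end mouse 2. The second Gpam probe set was lower (log2 -1.09, adjusted p = 0.00807).

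The macrophage marker sum was also lower in late than in early vehicle mice (1941 to 3666 against 4013 to 6313), with 10 of 12 markers called lower, and its part in these results was not tested. The Gapdh ratio was 0.742 to 0.838 in late and 0.735 to 0.798 in early vehicle mice (exact permutation p = 0.4). The actin ratio was 1.60 to 1.89 in late and 1.44 to 1.64 in early vehicle mice (exact permutation p = 0.2). With that ratio as covariate 5 sterol genes were called lower, Idi1, Fdft1, Sqle, Nsdhl and Hsd17b7, and Insig2 and Thrsp were called as before.

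In the testosterone mice, 5 sterol genes were called lower after withdrawal than at the end and 1 higher, against 5.31% of all genes called lower and 5.57% called higher, with a sterol median of -0.15 against -0.01 over all genes tested. The lower ones were Idi1, Fdft1, Sqle, Lss and Stard4. Idi1 read 1272, 1166 and 1381 at the end and 687, 561 and 748 after withdrawal. The drop was 1.92-fold without overlap (log2 -0.94 ± 0.12, adjusted p = 0.000113), beside 1.81-fold in vehicle mice. Stard4 went from 498, 539 and 655 to 305, 311 and 379 (log2 -0.76 ± 0.13, adjusted p = 0.00139), although its second probe set gave -0.22 (adjusted p = 0.583) and the call was lost with the mean of probe sets. Sqle, already low at the end, went from 432, 463 and 508 to 201, 239 and 397 (log2 -0.81 ± 0.19, adjusted p = 0.0160).

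Tm7sf2 was the sterol gene called higher. It read 532, 560 and 587 in testosterone mice at the end and 808, 744 and 814 after withdrawal (log2 0.49 ± 0.08, adjusted p = 0.00135), so the late mice were again near the vehicle levels of 735 to 877. Fdps, Nsdhl and Hsd17b7 had log2 values of 0.04, -0.15 and -0.15 in this comparison, and none was called. Without testosterone end mouse 3 or withdrawn testosterone mouse 1, 3 sterol genes were called in place of 6. The calls of Fdft1, Sqle and Lss were lost. The actin ratio was 1.47 to 1.82 after withdrawal and 2.03 to 2.19 at the end (exact permutation p = 0.1). With it as covariate 3 sterol genes were called, beside 110 of all genes, and the calls of Lss, Stard4 and Tm7sf2 were lost. The Gapdh ratio was 0.787 to 0.879 after withdrawal and 0.908 to 0.958 at the end (exact permutation p = 0.1). The macrophage marker sum was 2388 to 2668 after withdrawal and 2864 to 3534 at the end, without overlap. All 12 markers had values below 0 (median log2 -0.36), although none was called. Their part in these results was not tested.

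Insig2 was 3.34-fold higher in withdrawn testosterone mice, at 1070, 764 and 947 against 252, 293 and 283 (log2 1.74 ± 0.11, adjusted p = 2.30e-07). Srebf1 was lower here too, at 413, 331 and 479 against 843, 819 and 749. These groups did not overlap, and the difference was 1.99-fold (log2 -0.99 ± 0.17, adjusted p = 0.00153). In the lipogenic branch Thrsp, Gpam and Fasn were called lower. Thrsp read 581, 976 and 943 against 3006, 2963 and 3660, or 3.93-fold lower (adjusted p = 1.78e-05). Gpam read 661, 655 and 702 against 1005, 1414 and 1535, or 1.93-fold lower (adjusted p = 0.00114). The second Gpam probe set gave -0.21 here (adjusted p = 0.618), and the call was lost with the mean of probe sets and with the actin ratio as covariate. Fasn read 473, 522 and 764 against 966, 1118 and 1113, or 1.85-fold lower (adjusted p = 0.00553). In all 3 genes the late mice lay below the early ones. The difference between the vehicle and the testosterone mice in these changes over time is the same quantity as the change of the testosterone difference tested above, where no lipogenic gene or regulator was called.

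Averaged over the genes of a branch, with each gene centred on its mean over the 12 mice, the sterol level was highest in vehicle mice at the end. It was 0.73, 0.28 and 0.56 in those mice and -0.12, -0.12 and 0.17 in testosterone mice at the end. After withdrawal it was -0.18, -0.15 and -0.28 in vehicle mice and -0.51, -0.31 and -0.08 in testosterone mice. The 3 vehicle mice at the end lay above the other 9 mice. The lipogenic level had group means of 0.33 ± 0.30, 0.03 ± 0.22, -0.01 ± 0.23 and -0.36 ± 0.19 (SD, n = 3 each) in the same order, with neighbouring groups overlapping. These averages are a description of members chosen as a list and carry no test.

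**Figure D4:**
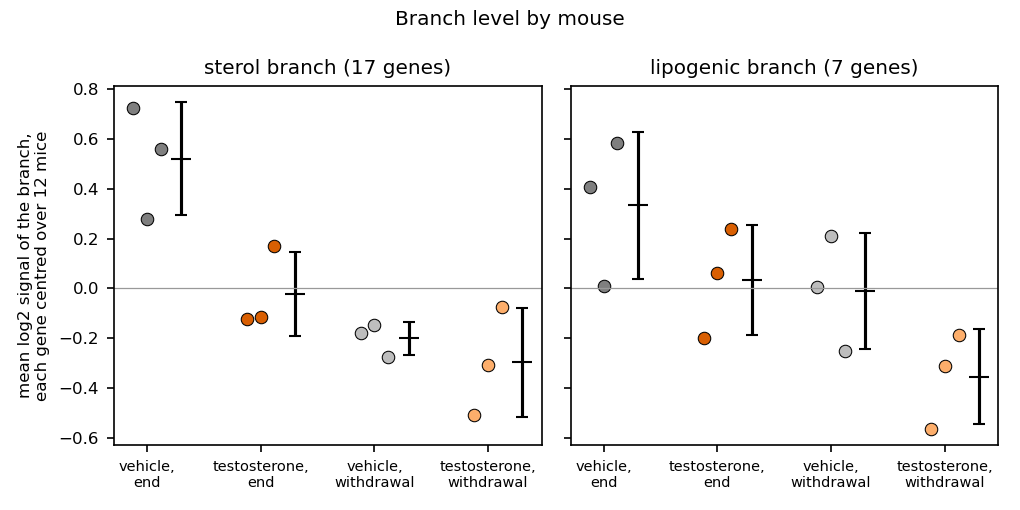
Branch level in each mouse: the mean log2 signal of the 17 sterol genes (left) and 7 lipogenic genes (right), each gene centred over the 12 mice. Points are mice and bars group means ± SD (n = 3); the vehicle mice at the end have sterol levels of 0.28 to 0.73, above all other mice.

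Several members had more than 1 probe set (55 in all, 49 above the filter), which did not always move alike. The 4 Hmgcs1 probe sets gave log2 differences of -1.0 to -0.47 at the end of treatment, all called. For Gpam the second probe set was lower in testosterone mice at the end (log2 -0.90, adjusted p = 0.0169), whereas the brighter one had a value of 0.35. For Stard4 the second had -0.62 against 0.31, neither of them called. A second Acly probe set was lower at the end (log2 -0.81, adjusted p = 0.0331), and a different one was lower in testosterone mice after withdrawal (log2 -0.76, adjusted p = 0.00853), with a change of the testosterone difference of -0.84 (adjusted p = 0.0387). A second Insig2 probe set was higher in testosterone than in vehicle mice after withdrawal (log2 0.44, adjusted p = 0.0302). Calls made above with the brightest probe set were also not shared by every other one. At the end of treatment the second Acss2 probe set gave -0.57 (adjusted p = 0.0877), and the 2 others of Cyp51 gave -0.49 and -0.44 (adjusted p = 0.0655 and 0.279). The second Hsd17b7 probe set gave 0.96 for the change of the testosterone difference (adjusted p = 0.0708). Between the times, 1 of the others of Cyp51 was not called in vehicle mice (log2 -0.62, adjusted p = 0.135), nor was the second of Fdft1 in testosterone mice (log2 -0.40, adjusted p = 0.172). Conversely, the second Sc5d probe set (log2 -1.08, adjusted p = 0.0391) and 1 of Hmgcs1 (log2 -0.62, adjusted p = 0.0478) were lower in vehicle mice after withdrawal. Which transcripts each probe set reads was not examined.

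Other genes of sterol handling and SREBP control were taken from a list of 21, of which 13 were tested. At the end of treatment 3 of the 13 were called lower and none higher, against 8.01% and 9.42% of all genes. After withdrawal none was called between the treatments, against 3.26% of all genes called lower and 2.74% called higher. Of the 3, the sterol exporter genes Abcg1 (log2 -0.48, adjusted p = 0.0314) and Abcg5 (log2 -0.39, adjusted p = 0.0444) were lower under testosterone at the end of treatment. The remaining 1 of the 3, Nr1h3, which encodes the oxysterol receptor LXR alpha (log2 -0.38, adjusted p = 0.0214), is named after its value was seen. In vehicle mice 3 were called lower at the later time, against 6.83% of all genes. These were Aacs, which activates acetoacetate for lipid synthesis (log2 -1.43, adjusted p = 0.0222), Msmo1, a methylsterol oxidase of the cholesterol route (log2 -1.06, adjusted p = 0.00233), and Abcg5 (log2 -0.87, adjusted p = 0.000425). In testosterone mice 2 were called lower at the later time, against 5.31% of all genes: Aacs (log2 -1.64, adjusted p = 0.0160) and Abcg5 (log2 -0.73, adjusted p = 0.00170).

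From a list of 22 further genes of lipogenesis, 17 were tested. At the end 1 was called higher and 1 lower in testosterone mice, against 9.42% of all genes called higher and 8.01% called lower. The higher one was Lpin1, a phosphatidate phosphatase and coactivator, at 932, 394 and 542 against 350, 193 and 271 (log2 1.15 ± 0.27, adjusted p = 0.0105); the lower one was Fads2, a fatty acid desaturase (log2 -0.76, adjusted p = 0.00100). After withdrawal 2 were called lower, against 3.26% of all genes. These were Pnpla3, a lipid droplet lipase (log2 -1.65, adjusted p = 0.0180, at signals of at most 27.2 in all 12 mice), and Pklr, the liver pyruvate kinase (log2 -0.64, adjusted p = 0.0160). Pnpla3 read 8.30, 3.95 and 9.02 in withdrawn testosterone mice. These signals lie under the array medians of 20.1 to 22.6, and that of mouse 2 under the floor of 4.84. Pnpla3 thus passed the filter on dim genes only through mice of the other groups. For Lpin1 the later groups read 96.3, 124 and 93.5 in vehicle and 48.7, 57.8 and 77.0 in testosterone mice, and the change of the testosterone difference was -1.93 ± 0.38 (adjusted p = 0.0206). Lpin1 was also lower at the later time in vehicle mice (log2 -1.35, adjusted p = 0.00440), where 3 of the 17 were called higher and 2 lower, against 11.0% and 6.83% of all genes. The other genes called there, named after their values were seen, were Tkt, a transketolase (log2 0.81, adjusted p = 0.0133), Elovl5, an elongase (log2 0.61, adjusted p = 0.0111), and Fads1, a desaturase (log2 0.49, adjusted p = 0.00904), all higher, and Fads2, lower (log2 -0.43, adjusted p = 0.0304). In testosterone mice 1 was called higher, Elovl5 (log2 0.58, adjusted p = 0.0187, named likewise), and 2 lower at the later time, against 5.57% and 5.31% of all genes. The lower ones were Lpin1 (log2 -3.28) and Elovl6, a fatty acid elongase (log2 -0.76, adjusted p = 0.0152).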

How the data were processed

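Liver RNA of 12 mice was hybridised to 1-colour Affymetrix arrays. The authors' deposited values are array intensity signals on a linear scale, made with GCOS and MAS5 per the submitters' processing notes (versions not given in the sources used here). Of 22690 probe sets, 64 are controls, 20380 have 1 gene symbol in the platform annotation, 691 several and 1555 none; only those with 1 were named.

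Signals were floored at 4.84 (25th percentile) and log2-transformed; the probe set with the highest mean stood for a gene, and genes above the array median on at least 3 of 12 arrays were kept (7217 of 12393). All 12 arrays were fitted with 4 group means in limma 3.58.1 (R 4.3.3; eBayes with trend; two-sided), after a test on simulated data. Single values were compared by exact permutation tests. The labels call the mice individual replicates. With 3 arrays a group, their number limits the precision.

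The genes to name were all members and, over both further lists pooled, the up to 4 called genes with the largest change in each comparison; others are marked where named. Members and lists were chosen with earlier results of these data known. Motifs were searched in RefSeq windows. Alternatives covered scaling, floor, filter, probe set choice, variance model, samples fitted, RNA quality, pairing and each mouse left out; a fit of every probe set was added after seeing the data.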

Additional observations from a re-analysis of the deposited data

Results flagged for a closer look

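In 3 genes the testosterone difference itself differed between the 2 times, by the test of that difference (limma, 3 mice a group). For Fdps, the farnesyl diphosphate synthase, the later difference minus the earlier one was 0.95 on the log2 scale, and for Hsd17b7, a sterol ketoreductase, it was 0.94. Both were below vehicle levels early, with no overlap of the groups, and had overlapping groups after withdrawal. Between the times both were called lower in vehicle mice (log2 -0.91 and -1.09). In testosterone mice their values were 0.04 and -0.15, neither called. Both calls of the changed difference were lost under several alternatives and without some single mice. For Lpin1, a phosphatidate phosphatase outside the listed members, the later difference minus the earlier one was -1.93. It had a called rise under testosterone early (log2 1.15) and a value of -0.79 after withdrawal that was not called (adjusted p = 0.105).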

How the results depend on the processing

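Array signals limit the precision through their number, and Acaca was dim. With the actin ratio as covariate, the values of Mvk, Fdft1 and Sqle at the end of treatment turned to 0.0154, 0.0416 and 0.0216, none called; in that fit 0 sterol and 0 lipogenic genes were called at the end, 1 lipogenic gene (Fasn) after withdrawal, 0 sterol genes for the change of the testosterone difference, and 5 and 3 sterol genes between the times in vehicle and testosterone mice. Of all genes, that fit called 78 at the end, 263 after withdrawal and 1 for the change of the difference. Between the times it called 232 in vehicle and 110 in testosterone mice. The cause was not tested.

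With no filter, 5 sterol genes were called at the end, 0 for the change of the difference and 3 between the times in testosterone mice; all 12393 genes were then tested. For the change of the difference, 1 sterol gene was called with median centring or quantile normalization and 0 with the mean of probe sets, without a variance trend, or with the replicate number as a block. The mean of probe sets gave 2 lipogenic calls between the times in vehicle mice. The fit of every probe set gave 4, 1, 1 and 2 lipogenic genes at the end, after withdrawal, for the change of the difference and in vehicle mice.

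Leaving out each mouse in turn gave 7 to 14 sterol calls at the end, 0 to 1 after withdrawal, 0 to 4 for the change of the difference, 9 to 13 in vehicle and 3 to 6 in testosterone mice; lipogenic calls ran 2 to 3, 0 to 1, 0 to 1, 1 to 2 and 3 to 4. Same-numbered mice of different groups did not deviate together (18 pairs, r -0.19 to 0.01), so numbers do not pair them; under the block 11 sterol genes were called at the end and 55 of all genes, against 158, for the change of the difference. Over the 22 other settings, 110 values of called genes lost their call with the same sign, and 22 others gained one. A further 3, of Mvk, Fdft1 and Sqle with the actin ratio as covariate, lost their call with the sign turned. All other sterol and lipogenic counts stayed within 1.5 times the reported ones.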
